A study of Mus musculus with 18 samples.

Results

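The genes that enterocytes use to rebuild triglyceride and pack it into chylomicrons, 10 in all, were followed across the ileum of control, heterozygous IEC-*Ppara* and homozygous IEC-*Ppara* mice. The 10 genes were chosen by name: the apolipoprotein genes *Apob*, *Apoa4*, *Apoa1* and *Apoc3*, the acyltransferase genes *Mogat2*, *Dgat1*, *Dgat2* and *Agpat2*, and *Mttp* and *Sar1b* of particle assembly and export. They are 10 of 55487 genes in the count files and 10 of the 12645 protein-coding genes that passed the filter on low counts (more than 3 CPM, counts scaled to a common library total, in at least 4 libraries), so that no member was lost to it. In an IEC-*Ppara* mouse, a cassette holding FLAG-tagged *Ppara* and *EGFP* under the CAG promoter, placed at the *Col1a1* locus, is turned into the expressed orientation by *Villin-CreERT2*, a Cre driven in gut epithelium and activated by tamoxifen. The strain was founded from 1 targeted clone. Heterozygous and homozygous refer to the copies of that cassette, controls lacked *Villin-CreERT2* (the study's methods describe them as animals of the cassette strain without Cre, and their copy number is not given in the sources used here), and all 3 groups, controls included, received 100 mg/kg tamoxifen daily for 3 days. The mice were chow-fed littermates of both sexes on the C57BL6/J background, 8 to 13 weeks old, and whole-thickness ileum was taken 2 weeks after the last injection. Each group held 6 mice with 1 library per mouse, of which 3 controls, 2 heterozygous and 2 homozygous mice were female.

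Dietary triglyceride is cut in the gut lumen into fatty acids and monoacylglycerol, which the enterocyte takes up and joins again at the endoplasmic reticulum. The monoacylglycerol route (*Mogat2*, then *Dgat1* or *Dgat2*) carries most of this resynthesis after a meal, and the glycerol phosphate route, in which *Agpat2* makes phosphatidic acid, runs beside it. The triglyceride is loaded by microsomal triglyceride transfer protein (*Mttp*) onto apolipoprotein B (*Apob*), the particle gathers further apolipoproteins, and it leaves the endoplasmic reticulum in carriers that need the small GTPase SAR1B. This machinery is known to be densest in the jejunum and lower in the ileum.

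The libraries held 38528522 to 50376371 counts on genes, with a median of 44387080. *Ppara*, the overexpressed gene, stood at 38.1 ± 8.40 CPM (SD, n = 6) in controls, 141 ± 35.4 in heterozygous and 216 ± 35.5 in homozygous mice, and no control overlapped with any IEC-*Ppara* library. All 10 enterocyte markers were well detected, at a summed level of 16176 to 27194 CPM over the 18 libraries. Of 10 distal small intestine markers 9 passed the filter, while 6 of 10 proximal markers passed. The 10 proximal markers summed to 754 to 1684 CPM, with *Slc5a1* at a median of 874 CPM and *Gata4* and *Lct* below 3 CPM in every library. The 10 distal markers, summed, had medians of 7807 CPM in controls (5985 to 9050.4), 7920.2 in heterozygous (6353 to 8046.5) and 5658 in homozygous mice (5219 to 7587). The 10 B cell markers summed to 12.6 to 24.0 CPM in 14 libraries and to 94.6 to 567 CPM in 4 (control 2, control 3, heterozygous 2 and homozygous 1). The 10 smooth muscle markers summed to 666 CPM in control 6 and 832 CPM in heterozygous 3 against 2628 to 9819 CPM in the others. Of 10 adipocyte markers 9 passed, with *Adipoq* at 0 in 6 libraries. All 10 summed to 97.6 to 1035 CPM in controls, 119 to 1046 in heterozygous and 162 to 983 in homozygous mice. Of 10 hepatocyte markers, 3 that intestine also expresses passed the filter. All 10 summed to medians of 505 CPM in controls, 471 in heterozygous and 456 in homozygous mice. *Alb*, which did not pass, had a median of 0.393 CPM, was at 0 in 3 libraries and reached 12.9 CPM in the highest. In whole tissue, fewer enterocytes and less RNA per enterocyte cannot be told apart.

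Levels were compared between genes per transcript length, as FPKM, fragments scaled to gene length and to library total. *Apoa1*, whose product is carried on chylomicrons and high density lipoprotein, led the group with a median of 3288 FPKM over the 18 libraries (2726 to 5022) and ranked 10 among all tested genes. *Apob* had a median of 141 FPKM and *Dgat1* of 141, followed by *Mogat2* at 112, *Agpat2* at 111 and *Mttp* at 96.2. *Sar1b* (56.6) and *Dgat2* (54.5) formed a lower pair, and *Apoa4* (25.9) and *Apoc3* (24.3) were the lowest. The ranges over the 18 libraries separated neighbours only at the steps from *Apoa1* to *Apob* and from *Mttp* to *Sar1b*, and within a library *Dgat1* also lay above *Mogat2* in 18 of 18. As a ratio of the highest to the lowest library, *Apoa4* crossed the widest span, from 6.84 to 102 FPKM, so its place in the order differed between mice.

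**Figure D1:**
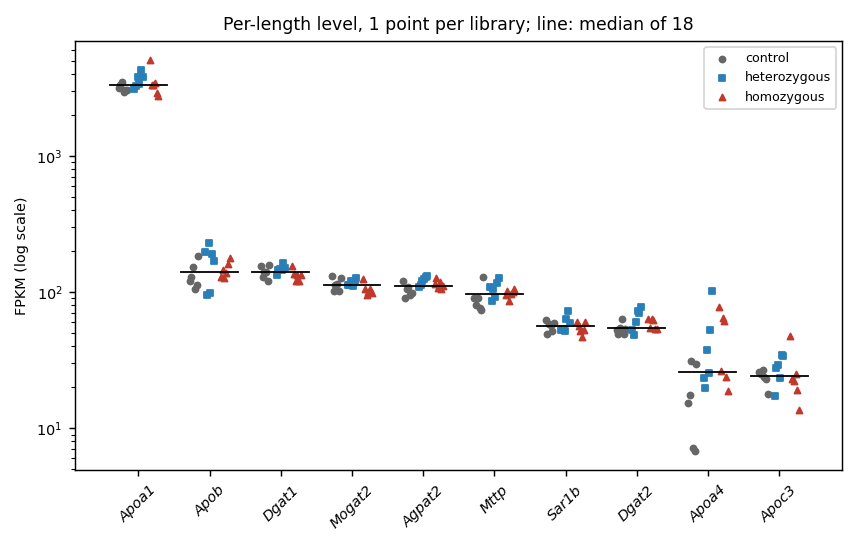
Per-length level of the 10 genes in ileum (FPKM, log axis), with 1 point per library coloured by genotype and a line at the median of 18 libraries. *Apoa1* lies apart from the rest at a median of 3288 FPKM, and *Apoa4* spreads from 6.84 to 102 FPKM.

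Of the apolipoprotein genes, 3 lie side by side on chromosome 9 (build GRCm38): *Apoa1* (ENSMUSG00000032083) at 46228580 to 46230466 on the plus strand, *Apoc3* (ENSMUSG00000032081) at 46232933 to 46235636 on the minus strand and *Apoa4* (ENSMUSG00000032080) at 46240696 to 46243459 on the plus strand. The gaps between them measured 2466 and 5059 bp. *Apob* (ENSMUSG00000020609) occupies 7977648 to 8016835 of chromosome 12. *Dgat2* (99153658 to 99182719) and *Mogat2* (99219084 to 99238619) are neighbours on the minus strand of chromosome 7, 36364 bp apart. *Dgat1* lies on chromosome 15 (76502015 to 76511953), *Agpat2* on chromosome 2 (26593057 to 26604417), *Mttp* on chromosome 3 (138089854 to 138144968) and *Sar1b* on chromosome 11 (51763687 to 51791925). *Apoa4* shares 634 of its 1815 exonic bases with the gene model *Gm47528* on the opposite strand, which had a median of 0.630 CPM, and *Mttp* shares 457 of 6206 with *Trmt10a*, which had a median of 2.63 CPM. The library kit as described does not mark strand, and the strand setting of the counting is not given in the sources used here. The study counted only unambiguous reads, so whether reads from those shared bases were counted cannot be told. If they were left out, the CPM and FPKM of *Apoa4* and *Mttp* are too low.

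Promoter windows of 300 bases (250 before and 50 after the transcript start, RefSeq, GRCm38.p6) were available for 6 of the 10 genes, namely *Apob*, *Apoa4*, *Apoa1*, *Agpat2*, *Mttp* and *Sar1b*. The windows of *Apoa4* and *Apoa1* (chromosome 9 neighbours) and of *Apob* and *Mttp* are shown because the genes of each pair varied together between mice, as described further on. The motifs searched on both strands were the nuclear receptor half-site AGGTCA, 2 such half-sites in direct repeat with 1 base between them (the form bound by PPARα with RXR), the core CAAAGTNCA of sites of the HNF4 type, and the TATA box TATAAA. The transcript start of a window lay 148 bases inside the gene as annotated for the counts for *Apoa4*, 50 for *Apoa1*, 29 for *Apob* and 1550 for *Mttp*, so that the *Mttp* window belongs to a start within the printed gene span. Capitals mark a match.
Apoa4 promoter, chr9:46240594-46240893, plus strand: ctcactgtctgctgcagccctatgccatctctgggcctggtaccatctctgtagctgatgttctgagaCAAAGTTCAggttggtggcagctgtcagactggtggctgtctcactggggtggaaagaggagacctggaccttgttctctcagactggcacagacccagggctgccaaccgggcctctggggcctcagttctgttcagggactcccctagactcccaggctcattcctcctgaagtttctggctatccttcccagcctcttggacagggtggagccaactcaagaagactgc
Apoa1 promoter, chr9:46228380-46228679, plus strand: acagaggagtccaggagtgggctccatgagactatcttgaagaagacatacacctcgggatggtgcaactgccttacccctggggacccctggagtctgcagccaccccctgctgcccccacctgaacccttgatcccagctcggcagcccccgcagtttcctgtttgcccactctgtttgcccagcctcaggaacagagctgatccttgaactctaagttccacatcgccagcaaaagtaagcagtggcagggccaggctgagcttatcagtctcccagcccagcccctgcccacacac
Apob promoter, chr12:7977427-7977726, plus strand: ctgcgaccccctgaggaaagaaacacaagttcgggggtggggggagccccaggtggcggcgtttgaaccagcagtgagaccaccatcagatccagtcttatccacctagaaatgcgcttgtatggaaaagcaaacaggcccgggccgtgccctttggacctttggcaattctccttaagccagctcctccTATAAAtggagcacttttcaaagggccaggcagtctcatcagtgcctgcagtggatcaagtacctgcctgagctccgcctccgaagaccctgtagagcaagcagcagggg
Mttp promoter, chr3:138143369-138143668, minus strand: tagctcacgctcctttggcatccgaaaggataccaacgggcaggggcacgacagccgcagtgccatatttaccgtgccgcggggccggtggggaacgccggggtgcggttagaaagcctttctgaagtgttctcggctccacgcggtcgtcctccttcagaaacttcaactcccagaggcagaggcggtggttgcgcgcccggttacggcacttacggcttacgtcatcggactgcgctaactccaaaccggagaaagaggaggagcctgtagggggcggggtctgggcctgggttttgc
*Apoa4* held 1 HNF4-type core, CAAAGTTCA, at −182 to −174 from the start, a motif present in 1.41% of 32851 promoter windows of that length, and *Apob* held 1 TATA box at −60 to −55, present in 13.6% of windows. Neither AGGTCA (16.3% of windows) nor its direct repeat (0.0396%) was found in the 6 windows, which says only that those letters are not in them.

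The first question was whether the chylomicron machinery differed in mRNA level when *Ppara* was overexpressed in the epithelium. None of the 10 genes passed the test between homozygous mice and controls (edgeR quasi-likelihood test with Benjamini-Hochberg adjustment over 12645 genes, adjusted p of the members 0.482 to 0.962), where 0.411% of all tested genes did (52 genes). None passed between heterozygous mice and controls (0.293% of all genes, 37 genes), between the 2 IEC-*Ppara* groups (0.00791%, 1 gene) or between both IEC-*Ppara* groups together and controls (0.554%, 70 genes), and DESeq2 also called 0 of 10 in each of these 4 comparisons. At an unadjusted p under 0.05, the homozygous comparison held 1 member, *Apoa4*, where 8.06% of all genes reached that level. The heterozygous comparison held 3 members, *Agpat2*, *Dgat2* and *Apoa4* (5.29% of all genes), and so did both groups together (6.48%), whereas homozygous against heterozygous mice held 0 (7.61%). The comparisons against controls share the 6 control libraries.

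The median log2 fold change over the 10 genes was 0.11 for homozygous mice against controls, with 7 values above 0 and 3 below, beside a median of −0.0048 over all tested genes. For heterozygous mice it was 0.25, with 10 values above 0, beside −0.0058 over all genes. In heterozygous mice 8 of 10 enterocyte markers had estimates above 0 (median log2 fold change 0.032), as did 9 of 9 adipocyte markers (0.36), and 10 of 10 smooth muscle markers (−0.19) and 10 of 10 B cell markers (−1.37) had estimates below 0. In homozygous mice 10 of 10 B cell markers lay below 0 (median −2.79, 10 at an unadjusted p under 0.05 by edgeR), as did 6 of 9 distal markers (−0.19, 3 at an unadjusted p under 0.05), and 10 of 10 smooth muscle (0.57) and 9 of 9 adipocyte markers (0.35) lay above 0. Between homozygous and heterozygous mice it was −0.15, with 1 value above 0 and 9 below, beside −0.00014 over all genes. In that last comparison 7 of 10 enterocyte markers had estimates below 0 (median log2 fold change −0.14), as did 7 of 9 distal markers (−0.23) and 10 of 10 B cell markers (−1.37), while 10 of 10 smooth muscle markers had estimates above 0 (0.74). None of these markers passed the adjusted threshold in the 3 comparisons. The summed smooth muscle markers had medians of 3949 CPM in controls, 3622 in heterozygous and 5054 in homozygous mice. The part of these markers in the members' values was not tested beyond the fits with a marker list as a covariate. The distal markers had a lower summed median in homozygous mice than in controls. A fit with them as a covariate therefore cannot fully tell their part from that of genotype, here and in the fits below. The ranges of the groups overlapped for every member in every pair of groups, where ranges of 0.854% of all tested genes did not overlap between homozygous mice and controls, 0.467% between heterozygous mice and controls and 0.269% between the IEC-*Ppara* groups. Together the 10 genes took 0.747 ± 0.0694% of all counts in control, 0.866 ± 0.127% in heterozygous and 0.809 ± 0.0961% in homozygous libraries (SD, n = 6 each). The 95% interval of the fold change lay within 1.5-fold in either direction for 9 of the 10 genes in homozygous mice, the exception being *Apoa4*, and for 7 of 10 in heterozygous mice, the exceptions being *Apoa4*, *Apob* and *Apoc3*.

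**Figure D2:**
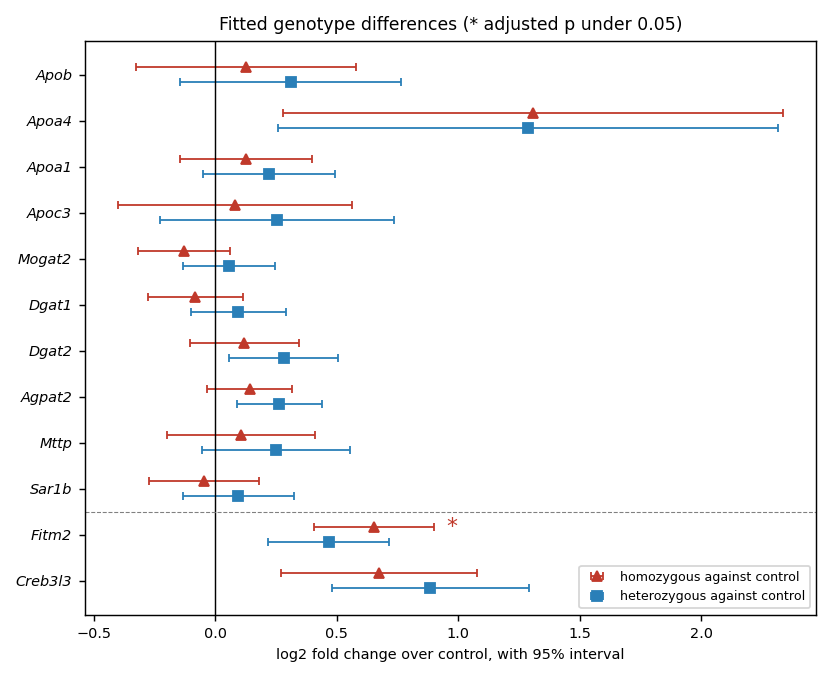
Fitted log2 fold changes over control with 95% intervals for the 10 genes and, under the dashed line, *Fitm2* and *Creb3l3* of the wider pathway list. Triangles are homozygous and squares heterozygous IEC-*Ppara* mice. *Apoa4* has the largest estimate of the 10 genes and the widest interval in both groups, and the asterisk marks *Fitm2* in homozygous mice (adjusted p = 0.00993).

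*Apoa4*, the apolipoprotein of nascent chylomicrons that is induced by fat absorption, had the largest estimated difference of the 10 genes. Control libraries ranged from 12.4 to 56.7 CPM with a median of 29.6, heterozygous libraries from 36.0 to 185 with a median of 57.1, and homozygous libraries from 34.1 to 141 with a median of 79.8. The homozygous mice fell into 3 libraries at 112, 117 and 141 CPM, above all controls, and 3 at 34.1, 43.0 and 47.9 CPM, within the control range. Of the heterozygous mice 3 of 6 exceeded all controls, and heterozygous 6 alone stood at 185 CPM. The fitted fold change was 2.48 in homozygous mice (95% interval 1.21 to 5.06, log2 fold change 1.31 with a standard error of 0.49, adjusted p = 0.482). In heterozygous mice it was 2.44 (1.20 to 4.98, adjusted p = 0.732), and homozygous against heterozygous mice gave 1.02 (0.505 to 2.04).

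The spread of *Apoa4* within a genotype was the widest of the 10 genes, with a coefficient of variation of 59.0% in controls, 71.5% in heterozygous and 55.7% in homozygous mice, and the highest library stood 14.9 times above the lowest. The estimate for both IEC-*Ppara* groups together was 2.46-fold (1.29 to 4.69) at an unadjusted p of 0.00900 and an adjusted p of 0.436 by edgeR, and the call did not change under any alternative. Without heterozygous 6, the heterozygous log2 fold change of *Apoa4* moved from 1.29 to 0.85, and without the 4 libraries rich in B cell markers the homozygous value was 1.36 (adjusted p = 0.841). With sex as a covariate the homozygous value was 1.06 (adjusted p = 0.675). The part of B cell content and sex in the *Apoa4* values was not tested beyond these fits.

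**Figure D3:**
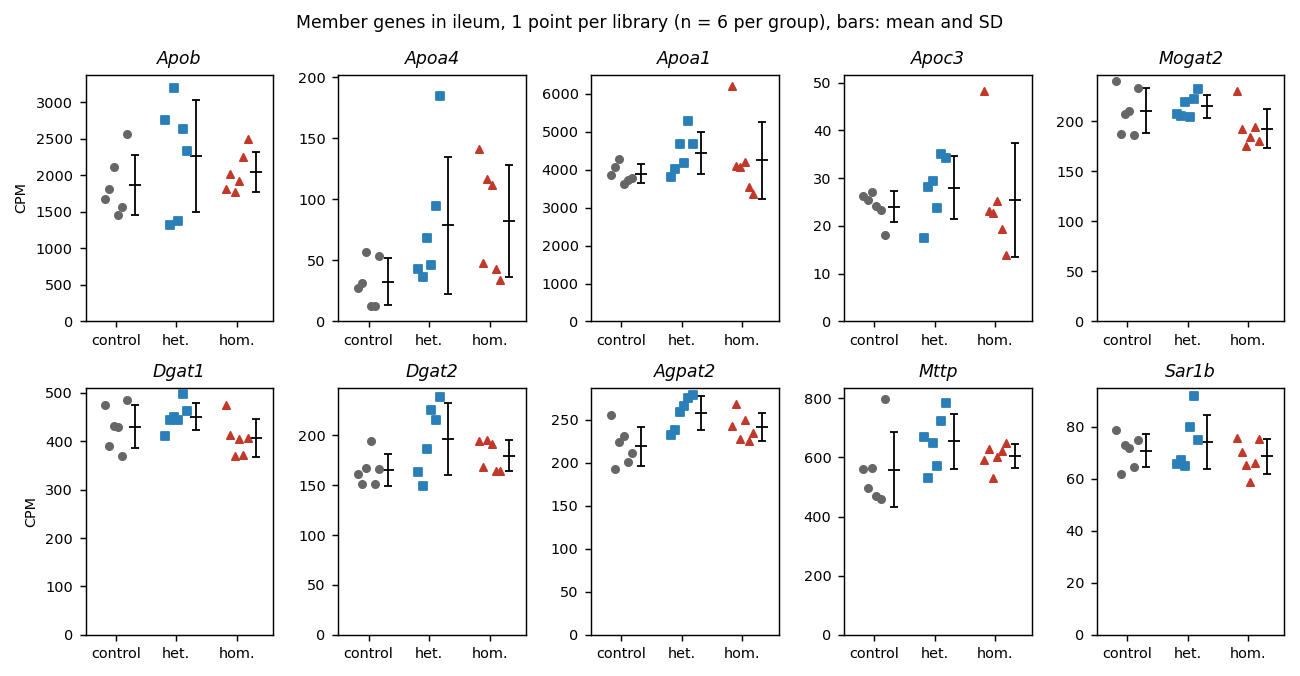
Level of each of the 10 genes in CPM, with 1 point per library, and the mean with SD beside each group (n = 6 per group, het. for heterozygous and hom. for homozygous IEC-*Ppara*). The groups overlap in all 10 panels, and in the *Apoa4* panel 3 homozygous and 3 heterozygous libraries lie above the highest control at 56.7 CPM.

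*Apob* encodes the structural protein of the chylomicron, of which each particle carries a single copy. Its control libraries ranged from 1457 to 2571 CPM (median 1743), heterozygous libraries from 1315 to 3192 (median 2489.6) and homozygous libraries from 1772 to 2495 (median 1970.3). Heterozygous libraries of *Apob* lay on both sides of the controls, 3 above the highest and 2 below the lowest, while all 6 homozygous libraries fell inside the control range. The fitted fold change of *Apob* was 1.09 in homozygous mice (0.797 to 1.497) and 1.24 in heterozygous mice (0.905 to 1.70). The homozygous log2 fold change of *Apob* moved from 0.13 to 0.28 without control 6, to 0.37 with smooth muscle markers and to 0.014 with B cell markers as a covariate (adjusted p = 0.924, 0.779 and 0.993).

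*Apoa1* ranged from 3611 to 4292 CPM in controls (median 3821), from 3794 to 5281 in heterozygous (median 4418) and from 3369.6 to 6207 in homozygous mice (median 4076). The highest value of all came from homozygous 1, and 2 other homozygous libraries lay below every control. For *Apoa1* the fold change was 1.09 in homozygous (0.904 to 1.32) and 1.17 in heterozygous mice (0.965 to 1.41), and without homozygous 1 the homozygous log2 fold change turned from 0.13 to −0.011 (adjusted p = 0.988).

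*Apoc3* encodes an inhibitor of lipoprotein lipase and of remnant uptake, and it was detected at a far lower level than its neighbour *Apoa1* (24.3 against 3288 FPKM). It ranged from 18.1 to 27.2 CPM in controls (median 24.8), from 17.4 to 35.2 in heterozygous (median 28.7) and from 13.9 to 48.2 in homozygous mice (median 22.9). Homozygous 1 was again the highest, and 4 of 6 heterozygous libraries exceeded all controls. The fold change of *Apoc3* was 1.06 in homozygous mice (0.759 to 1.48) and 1.19 in heterozygous mice (0.856 to 1.67), and without the 4 libraries rich in B cell markers, which include homozygous 1, its homozygous log2 fold change turned from 0.082 to −0.13 (adjusted p = 0.941).

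Among the enzymes, *Mogat2*, the monoacylglycerol acyltransferase that begins resynthesis in the enterocyte, had estimates below controls in homozygous mice. It ranged from 186 to 240.0 CPM in controls (median 209), from 204 to 233 in heterozygous (median 214) and from 175 to 229.8 in homozygous mice (median 188). Of the homozygous libraries 3 lay below all controls and 5 below all heterozygous libraries, with homozygous 1 the exception. The fold change of *Mogat2* was 0.915 against controls (0.803 to 1.04, adjusted p = 0.743) and 0.879 against heterozygous mice (0.771 to 1.00, unadjusted p = 0.0541, adjusted p = 0.642). With the distal markers as a covariate, the homozygous log2 fold change of *Mogat2* against controls moved from −0.13 to −0.014 (adjusted p = 0.995). With that covariate its log2 fold change against heterozygous mice was −0.074. Without control 6 the value against controls was −0.066.

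*Dgat1*, 1 of 2 unrelated enzymes that add the last acyl chain of triglyceride, showed a like order of groups. Its libraries ranged from 369.7 to 485 CPM in controls (median 431), from 410.4 to 498 in heterozygous (median 447) and from 369 to 476 in homozygous mice (median 405). In all, 4 of 6 homozygous libraries lay below all heterozygous ones. *Dgat1* had a fold change of 0.945 against controls (0.825 to 1.08) and 0.884 against heterozygous mice (0.772 to 1.01, adjusted p = 0.642). With the distal markers as a covariate, the homozygous log2 fold change of *Dgat1* against controls turned from −0.082 to 0.036 (adjusted p = 0.981). With that covariate its log2 fold change against heterozygous mice was −0.062. Without control 6 the value against controls was −0.014.

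*Dgat2*, the other enzyme of that step, ranged from 151 to 194 CPM in controls (median 164), from 149 to 239 in heterozygous (median 201) and from 164 to 195 in homozygous mice (median 179.8). Of the heterozygous libraries 3 exceeded all controls, as did 2 homozygous ones by a small margin. The fold change of *Dgat2* was 1.22 in heterozygous mice (1.04 to 1.42, unadjusted p = 0.0166, adjusted p = 0.729) and 1.09 in homozygous mice (0.931 to 1.27).

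*Agpat2*, which acylates lysophosphatidic acid and is the enzyme lost in a form of congenital lipodystrophy, had the lowest p of the 10 genes, in the heterozygous comparison. It ranged from 193 to 256 CPM in controls (median 217), from 232 to 279 in heterozygous (median 262) and from 225 to 269 in homozygous mice (median 239). In all, 4 of 6 heterozygous libraries and 1 of 6 homozygous libraries were above all controls. The fold change of *Agpat2* in heterozygous mice was 1.20 (1.06 to 1.36, unadjusted p = 0.00546, adjusted p = 0.474 by edgeR and 0.141 by DESeq2), and in homozygous mice it was 1.10 (0.977 to 1.25).

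*Mttp* ranged from 459 to 799 CPM in controls (median 529), from 530.2 to 783 in heterozygous (median 659.7) and from 532 to 649 in homozygous mice (median 611). The highest of the 18 libraries was control 6, which was also the library lowest in smooth muscle markers and highest in enterocyte markers. *Mttp* had a fold change of 1.08 in homozygous (0.872 to 1.33) and 1.19 in heterozygous mice (0.964 to 1.47). Without control 6 the log2 fold change of *Mttp* moved from 0.11 to 0.27 in homozygous mice (adjusted p = 0.578) and from 0.25 to 0.42 in heterozygous mice (adjusted p = 0.266), and the homozygous value was 0.28 with smooth muscle markers as a covariate (adjusted p = 0.686) and 0.022 with B cell markers (adjusted p = 0.990). *Sar1b*, the GTPase of chylomicron carriers, ranged from 61.9 to 78.5 CPM in controls (median 72.4), from 64.8 to 91.6 in heterozygous (median 70.9) and from 58.7 to 75.7 in homozygous mice (median 68.1). Its groups overlapped throughout, and the fold change of *Sar1b* was 0.969 in homozygous (0.828 to 1.14) and 1.068 in heterozygous mice (0.912 to 1.25). The homozygous log2 fold change of *Sar1b* turned from −0.045 to 0.080 with distal markers as a covariate and to 0.0012 without control 6, and the heterozygous value moved from 0.095 to 0.013 without heterozygous 5.

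Sex was examined because both sexes were pooled in each genotype. None of the 10 genes passed the test between females and males with genotype in the fit (edgeR, where 0.0554% of all genes did, 7 genes), and 0 of 10 reached an unadjusted p under 0.05, where 3.39% of all genes did. None passed the test of whether the homozygous difference depended on sex (edgeR, 0% of all genes), and 0 of 10 reached an unadjusted p under 0.05, where 2.04% of all genes did. *Apoa4* again had the largest estimate. It ranged from 13.0 to 53.6 CPM in 7 females (median 42.6) and from 12.4 to 185 in 11 males (median 68.1), so that no female exceeded 53.6 CPM while the sexes overlapped below it. The log2 fold change of *Apoa4* for females against males was −0.79 (standard error 0.41, unadjusted p = 0.0683, adjusted p = 0.998). The homozygous log2 difference from controls was 0.52 in females and 1.57 in males, and that contrast between the sexes did not pass (unadjusted p = 0.279). For females against males, 9 of 9 adipocyte markers (median log2 fold change −1.13), 10 of 10 B cell markers (−0.56) and 10 of 10 smooth muscle markers (−0.19) had estimates below 0 and 9 of 9 distal markers above 0 (0.12). In the contrast between the sexes, 10 of 10 B cell (2.58) and 10 of 10 smooth muscle markers (0.21) lay above 0 and 9 of 9 adipocyte markers below 0 (−1.93), and the part of these markers in the *Apoa4* values was not tested.

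How the 10 genes varied among themselves was described with the genotype means removed, over 18 libraries, the values of a pair coming from the same library. Of 45 pairs, 41 had a correlation above 0, the median Pearson r was 0.430, and 5 passed a permutation test within genotype after Benjamini-Hochberg adjustment over the 45 pairs (17 at an unadjusted p under 0.05). By Spearman rho, *Dgat1* with *Agpat2* also passed (rho = 0.697, permutation, adjusted p = 0.029), whereas its r of 0.63 did not (permutation, adjusted p = 0.0755). How often pairs of other genes would pass was not tested. *Apoa1* and *Apoc3*, neighbours 2466 bp apart, gave the highest value (r = 0.914, permutation p = 4e-05, adjusted p = 0.0018; Spearman rho = 0.878, permutation p = 2e-05). Leaving out the 2 libraries most distant from the median level of the second gene named in a pair, here *Apoc3*, gave r = 0.789. Within the genotypes the values were 0.507 (control), 0.851 (heterozygous) and 0.982 (homozygous). *Apoa4* and *Apoa1* followed each other less closely (r = 0.666, permutation p = 0.00049, adjusted p = 0.00735; rho = 0.759, permutation p = 0.00032; 0.743 without 2 libraries), with values of 0.707, 0.720 and 0.775 within control, heterozygous and homozygous mice. For *Apoa4* and *Apoc3* the pooled r of 0.537 did not pass (permutation, adjusted p = 0.0824).

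*Mogat2* and *Dgat1*, consecutive steps of the monoacylglycerol route, varied together (r = 0.861, permutation p = 0.0002, adjusted p = 0.0045; rho = 0.829, permutation p = 0.00021; 0.817 without 2 libraries). Within genotypes the values were 0.973, 0.603 and 0.822 for control, heterozygous and homozygous mice. *Dgat1* also varied with *Sar1b* (r = 0.697, permutation p = 0.00116, adjusted p = 0.0104; rho = 0.701, permutation p = 0.00275; 0.746 without 2 libraries, and 0.906, 0.774 and 0.565 within the genotypes). *Dgat2*, which lies beside *Mogat2* on chromosome 7, was not among the pairs that passed. *Apob* and *Mttp*, the particle's protein and the factor that lipidates it, gave r = 0.742 (permutation p = 0.00102, adjusted p = 0.0104; rho = 0.818, permutation p = 0.00047; 0.795 without 2 libraries), with 0.906, 0.744 and 0.810 within control, heterozygous and homozygous mice. Both genes also varied with the enterocyte markers (r = 0.692 for *Apob* and 0.773 for *Mttp*), and the part of enterocyte content in the r of this pair was not tested. *Apob* and *Apoc3* had the lowest value of all pairs (r = −0.228, permutation p = 0.347), and the median r of *Apob* with the other 9 genes was 0.0543.

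**Figure D4:**
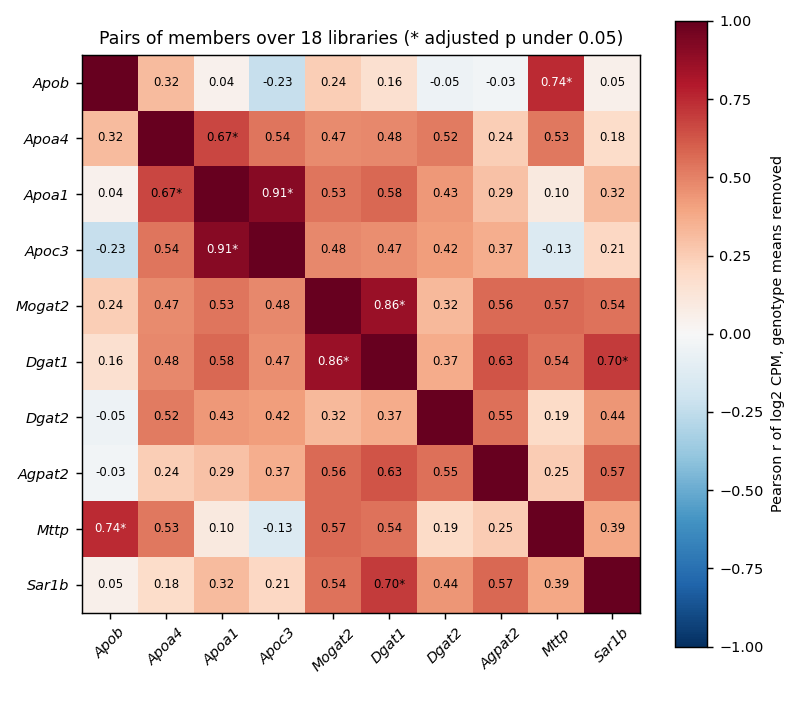
Pearson correlation of log2 CPM for each of the 45 pairs of the 10 genes over 18 libraries, with genotype means removed. An asterisk marks the 5 pairs with an adjusted permutation p under 0.05, among them *Apoa1* with *Apoc3* (r = 0.914) and *Apob* with *Mttp* (r = 0.742).

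**Figure D5:**
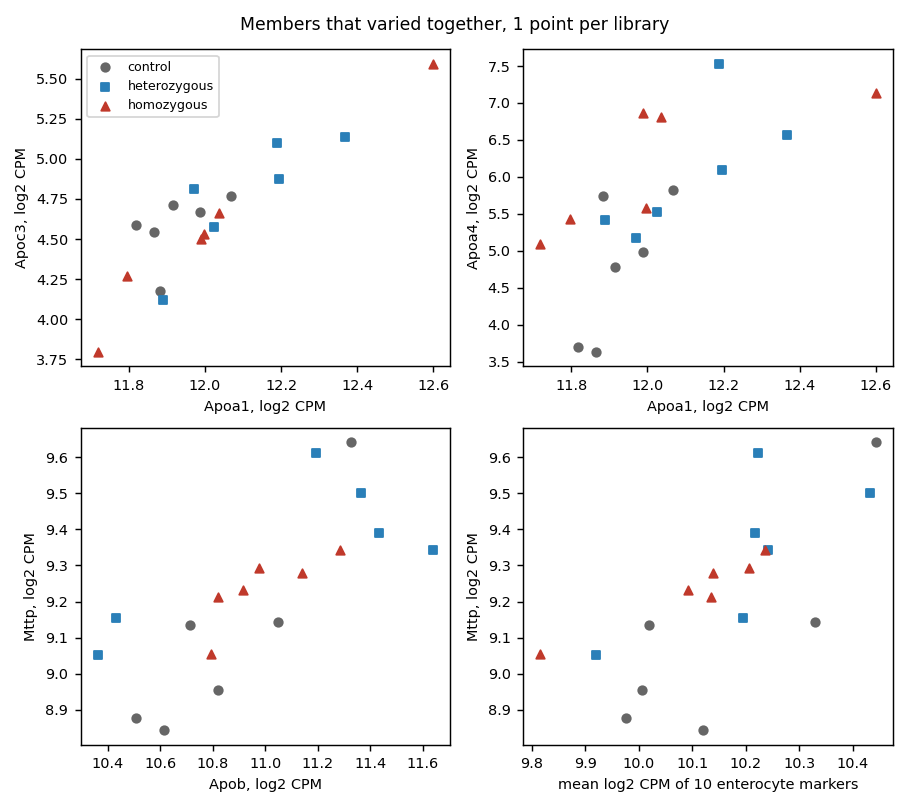
Log2 CPM per library for *Apoc3* and *Apoa4* against *Apoa1*, for *Mttp* against *Apob*, and for *Mttp* against the mean log2 CPM of 10 enterocyte markers, with genotypes by colour and shape. Homozygous 1 is the point at the upper right of the *Apoa1* and *Apoc3* panel, at 6207 CPM for *Apoa1*.

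The same was done against 7 marker lists, 70 relations in all, with the adjustment over all 70. Here the 2 libraries left out were those most distant from the median of the list score. The smooth muscle score set 2 libraries apart from the other 16. The B cell score (14 and 4 libraries) and the adipocyte score (8 and 10) also split the libraries into separate clusters. The 30 relations with these 3 lists over all libraries were therefore not read (0 passed, 5 at an unadjusted permutation p under 0.05). Of the 40 relations with the other 4 lists, 2 passed (5 at an unadjusted p under 0.05), and 2 passed with the adjustment over those 40. Both were with the enterocyte markers: *Mttp* had r = 0.773 (permutation p = 0.00042, adjusted p = 0.0154; rho = 0.800, permutation p = 0.00011; 0.649 without 2 libraries) and *Apob* had r = 0.692 (permutation p = 0.00044, adjusted p = 0.0154; rho = 0.771, permutation p = 0.00022; 0.659 without 2 libraries). Without the 4 libraries rich in B cell markers these were 0.748 and 0.606. Within control, heterozygous and homozygous mice *Mttp* gave 0.805, 0.731 and 0.969 and *Apob* gave 0.901, 0.682 and 0.662. *Sar1b* had the highest r with the proximal markers (0.655, rho = 0.523), which did not pass (permutation p = 0.00627 for r and 0.0368 for rho, adjusted p = 0.146 for r). With genotype means kept this relation passed (r = 0.681, permutation, adjusted p = 0.0469). Within a cluster of at least 6 libraries, the median r of the 10 genes was −0.318 with smooth muscle markers (16 libraries), −0.357 with B cell markers (14 libraries), and −0.322 and −0.0554 with adipocyte markers (8 and 10 libraries). With smooth muscle markers 1 of 10 genes lay above 0 in the 16 libraries, where *Mttp* had r = −0.439 and *Apob* −0.278. With adipocyte markers the single genes spread widely. In the 8 libraries r ran from −0.724 (*Dgat1*) to 0.0165, with 1 of 10 above 0. In the 10 libraries it ran from −0.49 to 0.823 (*Dgat2*), with 4 of 10 above 0.

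A wider list of 56 genes of the pathway, 50 of them tested, was read from the same fit. In homozygous mice against controls, 1 of the 50 passed (0.411% of all genes), in heterozygous mice 0 (edgeR, 3 at an unadjusted p under 0.05, 6% of the list against 5.29% of all genes; DESeq2 called 2, and 82 over all genes), between the IEC-*Ppara* groups 0 (edgeR, 3 at an unadjusted p under 0.05, 6% against 7.61%; DESeq2 called 0), and with both groups together 2 (0.554% of all genes). The medians of the 50 log2 fold changes were −0.012, 0.037 and −0.031 for the first 3 of these comparisons and 0.0048 for the last. By role, 13 of 15 other esterification genes, 10 of 14 other assembly genes, 18 of 18 export genes and 9 of 9 regulators were tested.

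*Fitm2*, whose endoplasmic reticulum protein is needed for lipid droplets to form, was the gene that passed in homozygous mice. It ranged from 10.4 to 17.6 CPM in controls (median 15.5), from 15.2 to 24.5 in heterozygous (median 19.9) and from 19.1 to 27.6 in homozygous mice (median 22.0), and all 6 homozygous libraries lay above all 6 controls, a separation found in 0.854% of all tested genes in either direction. *Fitm2* rose 1.57-fold in homozygous mice (1.33 to 1.87, log2 fold change 0.65 with a standard error of 0.12, adjusted p = 0.00993) and 1.47-fold in both groups together (adjusted p = 0.0127), and the heterozygous estimate was 1.38-fold (adjusted p = 0.170 by edgeR, 0.0348 by DESeq2, and 0.0361 by edgeR with adipocyte markers as a covariate). Among other settings, the homozygous call was lost with the distal markers as a covariate (log2 fold change 0.53, adjusted p = 0.154) and without the 4 libraries rich in B cell markers (0.58, adjusted p = 0.159). The call in both groups together (log2 fold change 0.56) was lost, again among other settings, without those libraries (0.49, adjusted p = 0.214) and with library size alone in place of TMM (0.54, adjusted p = 0.05825).

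*Creb3l3* encodes the membrane-bound transcription factor CREBH, known to drive apolipoprotein genes including *Apoa4*. It ranged from 72.4 to 157 CPM in controls (median 129), from 170.1 to 306 in heterozygous (median 207) and from 159 to 241 in homozygous mice (median 196), and all 12 IEC-*Ppara* libraries lay above all 6 controls, by a small margin in homozygous mice. Groups were separate in this way, in either direction, in 0.854% of all tested genes for homozygous mice and 0.467% for heterozygous mice. *Creb3l3* rose 1.72-fold in both groups together (1.34 to 2.21, log2 fold change 0.78, adjusted p = 0.0474), while each group alone did not pass in edgeR with all 18 libraries and no covariate (1.85-fold in heterozygous mice, adjusted p = 0.0692, and 1.60-fold in homozygous mice, adjusted p = 0.218). In heterozygous mice edgeR did call it with distal (adjusted p = 0.0380) or adipocyte markers (adjusted p = 0.0361) as a covariate. It was also called there in 3 of 18 fits that left out 1 library: control 1 (adjusted p = 0.0459), heterozygous 1 (0.0409) or heterozygous 2 (0.0391). The call in both groups together sat near the threshold: leaving out 1 library at a time kept it in 5 of 18 fits, with adjusted p from 0.0283 to 0.121, and it was lost, among other settings, without the 4 libraries rich in B cell markers (log2 fold change 0.89, adjusted p = 0.177) and with sex as a covariate (0.75, adjusted p = 0.102). DESeq2 called *Creb3l3* in heterozygous mice (adjusted p = 0.00072), in homozygous mice (adjusted p = 0.0319) and in both groups together (adjusted p = 0.000344).

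The other pathway genes with the largest estimates in their lists did not pass in homozygous mice. *Lpin2*, a phosphatidate phosphatase of the glycerol phosphate route, had a log2 fold change of 0.33 (standard error 0.12, adjusted p = 0.508) at 157 ± 19.3 CPM in controls and 197 ± 28.2 in homozygous mice (SD, n = 6). *Gpam*, the mitochondrial glycerol phosphate acyltransferase, stood at 0.23 (adjusted p = 0.836). The *Gpam* value was 0.067 without homozygous 3 and 0.37 without control 4. Of the coat proteins of export carriers, *Sec24d* had a log2 fold change of 0.12 (adjusted p = 0.841) and *Sec23b* of −0.097 (adjusted p = 0.849), and no export gene reached an unadjusted p under 0.05 in that comparison (edgeR, 0 of 18, where 8.06% of all genes did).

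The genes whose pattern over the 18 libraries was nearest to each member, with genotype means removed and 12635 genes searched, are given as a description without a test. For *Apob* they were *Fam83b* (r = 0.939) and *Mfsd14b* (0.936), and for *Mttp* *C77080* (0.862) and *Slc41a2* (0.854). *Apoa4* was nearest to *Enpp7* (0.846), the alkaline sphingomyelinase of the brush border, and to *Igsf23* (0.831). For *Apoa1* they were *Phyh* (0.851) and *Dazap2* (0.848), and for *Apoc3* *Cenpv* (0.926) and *Fam104a* (0.902). *Mogat2* was nearest to *Akr1b7* (0.884) and *Arhgef16* (0.853), and *Dgat1* to *Tm4sf5* (0.902) and *Nat8* (0.875). For *Dgat2* they were *Tnfrsf1a* (0.858) and *Aifm2* (0.811), for *Agpat2* *Pex19* (0.848) and *Abhd6* (0.830), and for *Sar1b* *Ube2a* (0.900) and *Pdcd6* (0.858).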

How the data were processed

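Whole-thickness ileum of 18 mice was sequenced by the authors as poly-A-selected paired reads, which were aligned with STAR (Ensembl, GRCm38) and counted per gene with featureCounts. The deposited counts are not normalized. The authors obtained CPM by dividing each count by its library total, and their deposited FPKM further divide by gene length. A deposited table of moderated log2 CPM was not used. Mice were grouped by the genotype in the labels. The 10 members and the pathway and marker lists were chosen with earlier results of these data known. Of 55487 genes, 13709 had more than 3 CPM in at least 4 libraries, and the 12645 protein-coding ones were fitted with edgeR 4.0.16 in R 4.3.3 (quasi-likelihood test, TMM, all 18 libraries, Benjamini-Hochberg adjustment, threshold 0.05), with 95% intervals from the same fit. The fit was tested on simulated data, and the outcome of that test is not given here. Correlations used log2 CPM (prior count 2), genotype means removed, and 100000 two-sided permutations within genotype, whose smallest p is 1e-05 (Python 3.11.15, pandas 2.3.3, numpy 2.4.6). Named pathway genes were those with an adjusted p under 0.05 in any genotype comparison and otherwise the 2 of each list with the largest homozygous estimate. The values of 1 gene named by this rule are not reported here. The nearest 2 genes of each member were named by Pearson r. Alternatives were DESeq2 1.42.0, DESeq2 size factors or library size alone, other filters, all biotypes, only the libraries compared, sex, replicate number, distal, smooth muscle, adipocyte or B cell markers as covariates, a robust fit, and leaving out libraries. The adipocyte and B cell covariates and the fit without the 4 libraries rich in B cell markers were added after the data were seen. At the lowest depth of 38528522 counts the lowest count of any member in any library was 500 (*Apoa4*, control 4).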

Additional observations from a re-analysis of the deposited data

Results flagged for a closer look

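Within groups of 6 libraries, 5 values stood apart from the others by the gap of the extreme value relative to the range. Among the 51 gene and group sets examined, chance alone gives such a gap in about 1 in 20. Homozygous 1 accounted for 3 of them: *Apoa1* at 6207 CPM against 3369.6 to 4202 in the other homozygous mice, *Apoc3* at 48.2 CPM against 13.9 to 25.3, and *Mogat2* at 229.8 CPM against 175 to 194. Homozygous 1 is also 1 of the 4 libraries rich in B cell markers, and the part of this in its values was not tested. *Mttp* stood at 799 CPM in control 6 against 459 to 565 in the other controls. *Lpin2* stood at 251.1 CPM in homozygous 6 against 173 to 198 in the other homozygous mice.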

How the results depend on the processing

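No member passed in any genotype comparison under any alternative. Over the alternatives other than leaving out 1 library, 583 of 600 log2 fold changes of members kept their direction, and 700 of 720 did so when 1 library was left out. In homozygous mice against controls, *Dgat1* turned to 0.036 with distal markers and 0.0053 with smooth muscle markers as a covariate, *Sar1b* to 0.080 and *Gpam* to −0.14 with distal markers, *Sec24d* to −0.0040 with B cell markers, and *Apoc3* to −0.13 without the 4 libraries rich in B cell markers. Between homozygous and heterozygous mice, *Apoa4* turned to −0.088 with distal markers, −0.00686 with B cell markers and −0.36 without those 4 libraries, *Apob* to 0.080 and *Mttp* to 0.017 with smooth muscle markers, and *Creb3l3* to 0.0026 with distal markers. With both groups together, *Mogat2* turned to 0.023 with distal and 0.000740 with smooth muscle markers, *Dgat1* to −0.00871 with library size alone, −0.010 with B cell markers and −0.045 without the 4 libraries, and *Sar1b* to −0.014 with B cell markers and −0.00631 without the 4 libraries. The causes were not tested, and all of these values had adjusted p above 0.8.

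Leaving out 1 library at a time moved the homozygous log2 fold change against controls between 0.053 and 0.28 for *Apob*, 0.048 and 0.27 for *Mttp*, −0.011 and 0.18 for *Apoa1*, −0.20 and 0.20 for *Apoc3*, and −0.091 and 0.0012 for *Sar1b*. The ranges of that same difference were −0.13 to −0.014 for *Dgat1* and −0.18 to −0.066 for *Mogat2*. In heterozygous mice against controls the ranges were 0.195 to 0.457 for *Apob*, 0.165 to 0.36 for *Apoc3*, 0.015 to 0.119 for *Mogat2* and 0.0505 to 0.162 for *Dgat1*. Leaving out 1 library moved *Apoa4* in homozygous against heterozygous mice between −0.20 and 0.46. With both groups together it moved *Dgat1* between −0.038 and 0.074, *Mogat2* between −0.078 and 0.026, and *Sar1b* between −0.021 and 0.071. The pathway list held 1 to 2 calls with both groups together and 0 to 1 in heterozygous mice when 1 library was left out.

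Calls in the pathway list for homozygous mice went from 1 to 0 with distal markers or without the 4 libraries and to 2 with DESeq2. For heterozygous mice they went from 0 to 1 with distal markers, 2 with DESeq2 and 2 with adipocyte markers. With both groups together they went from 2 to 1 with library size alone (*Creb3l3* kept), with no filter, sex, a robust fit or B cell markers (*Fitm2* kept), and to 0 without the 4 libraries. With genotype means kept, 8 in place of 5 of the 45 pairs of members passed, and 3 in place of 2 of the 70 relations to marker lists. Over all genes, DESeq2 called 136, 82, 9 and 140 genes where edgeR called 52, 37, 1 and 70 (homozygous, heterozygous, homozygous against heterozygous, both groups). Without the 4 libraries the counts were 31, 15, 0 and 32.

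The sources used here do not say that the replicate numbers pair the mice. Same-numbered libraries had correlations of deviations from −0.606 to 0.642, with a median of 0.0552, and 9 of 18 such pairs exceeded 0.1. Other pairs had a median of −0.033. Whether some numbers share a litter or a batch cannot be told from these values. With the replicate number as a block, edgeR called 49, 22, 0 and 43 genes over all, 0 of the 10 members, and 0 pathway genes in homozygous mice and in both groups together. *Fitm2* then had log2 fold changes of 0.66 (adjusted p = 0.0582) and 0.56 (adjusted p = 0.0776) in those comparisons, *Creb3l3* had 0.78 in both groups (adjusted p = 0.134), and the female against male log2 fold change of *Apob* turned to 0.099. With 6 mice a group, the precision of each difference is that of its 95% interval.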
